A study of Mus musculus with 16 samples.

Results

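The genes of the mitochondrial ribosome were followed in cardiomyocytes from mouse hearts under pressure load, with and without extra PRODH. Members were the gene models whose symbol begins with Mrpl or Mrps followed by a digit and is not that of a pseudogene, and 78 of the 57010 gene models in the table met this rule. The rule used names alone and no measured value. All 78 passed the filter on low counts, which left 14066 genes for testing.

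RNA was sequenced from adult cardiomyocytes isolated from hearts of C57BL/6 mice in 16 libraries, 4 in each of 4 groups. PRODH TAC mice, labelled PRODH Overexpression, were injected with AAV9-PRODH and then underwent transverse aortic constriction (TAC), an operation that narrows the aorta and makes the left ventricle pump against high pressure. Vector TAC mice, labelled WT, received AAV9-Vector and the same constriction. PRODH sham and vector sham mice received AAV9-PRODH or AAV9-Vector and a sham operation. All 4 groups thus carried adeno-associated virus 9, a gene delivery vehicle, with no uninjected group. Surgery was performed 3 weeks after injection and cells were taken 4 weeks after surgery. The design text describes the overexpression as cardiac-specific, while neither the promoter in the virus nor the age of the mice is stated. The PRODH protein, proline dehydrogenase, carries out the first step of proline breakdown in mitochondria. The study set out to compare TAC with sham under the vector and PRODH with vector after TAC.

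Mitochondria keep a small genome of their own, and the proteins it encodes, all of them parts of the respiratory chain and ATP synthase, are made inside the organelle by the mitochondrial ribosome. That ribosome is built from RNA transcribed in the mitochondrion and from proteins encoded in the nucleus, made in the cytosol and imported. Its large subunit joins amino acids and its small subunit reads the messenger RNA. Some of its proteins descend from the bacterial ribosome and others occur in mitochondria alone. In people, variants in several of these genes, MRPL3, MRPL44 and MRPS22 among them, cause disease of the heart muscle.

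By subunit, 51 members belong to the large and 26 to the small subunit. Mrps18a and Mrps30 are counted with the large subunit, where their proteins sit despite their symbols. Mrps36 is counted in neither, since its product is a part of the 2-oxoglutarate dehydrogenase complex. By origin, 46 members are counted as having a bacterial homolog and 31 as specific to mitochondria. Of the 3 relatives of bacterial S18, Mrps18c is counted with the first and Mrps18a and Mrps18b, which sit elsewhere in the ribosome, with the second.

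Promoter sequences are shown for 6 members because these genes moved in different ways in the results that follow. Mrpl47 and Mrps22 had the largest rises with PRODH after TAC, Mrps6 and Mrpl52 were lower with PRODH, Mrpl45 had the smallest p for TAC under the vector, and Mrps18a holds all 3 of the motifs marked. Each sequence runs 5′ to 3′ on the strand of the gene from 150 bases before the annotated start through the first 30 transcribed bases, taken from RefSeq on GRCm38.p6. Capitals mark matches on either strand to CCGGAAG, bound by ETS factors such as GABP, to TGCGCA, the core of the site of nuclear respiratory factor NRF1, and to AAGATGG, a YY1-type motif.
Mrpl47 (chr3:32736726-32736905, minus strand): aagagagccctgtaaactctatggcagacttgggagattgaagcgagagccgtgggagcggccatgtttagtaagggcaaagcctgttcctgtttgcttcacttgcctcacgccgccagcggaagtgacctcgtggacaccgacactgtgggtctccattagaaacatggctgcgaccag
Mrps22 (chr9:98601650-98601829, minus strand): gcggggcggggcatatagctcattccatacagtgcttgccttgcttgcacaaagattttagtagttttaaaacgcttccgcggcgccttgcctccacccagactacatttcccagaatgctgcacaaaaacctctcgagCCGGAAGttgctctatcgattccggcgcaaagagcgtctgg
Mrpl45 (chr11:97315566-97315745, plus strand): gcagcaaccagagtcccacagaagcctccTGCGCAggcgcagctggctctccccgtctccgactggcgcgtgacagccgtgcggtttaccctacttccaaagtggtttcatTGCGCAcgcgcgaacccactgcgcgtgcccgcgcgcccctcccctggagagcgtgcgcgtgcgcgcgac
Mrps6 (chr16:92058186-92058365, plus strand): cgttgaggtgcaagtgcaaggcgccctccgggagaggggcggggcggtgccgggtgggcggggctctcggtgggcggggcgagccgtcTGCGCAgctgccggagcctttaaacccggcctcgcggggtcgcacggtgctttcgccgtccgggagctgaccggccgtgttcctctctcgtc
Mrpl52 (chr14:54426759-54426938, plus strand): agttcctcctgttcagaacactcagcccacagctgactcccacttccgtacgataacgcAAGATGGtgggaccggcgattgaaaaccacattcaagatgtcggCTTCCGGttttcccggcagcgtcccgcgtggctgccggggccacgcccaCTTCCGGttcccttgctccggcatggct
Mrps18a (chr17:46110854-46111033, plus strand): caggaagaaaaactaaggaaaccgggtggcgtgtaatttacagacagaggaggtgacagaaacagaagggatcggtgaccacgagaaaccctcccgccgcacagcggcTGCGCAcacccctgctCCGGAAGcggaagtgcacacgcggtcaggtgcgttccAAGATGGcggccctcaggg
The Mrps22 promoter held CCGGAAG 11 bases before the start, and the Mrpl47 promoter held none of the 3 in this stretch. Promoters of 69 members were in the RefSeq table, each covering 250 bases before to 50 after the start. CCGGAAG was found in 26 of these 69 (37.68%), against 19.48% of the promoters of tested genes and 9.928% of all promoters. TGCGCA was found in 21 (30.43%), against 15.42% and 8.792%, and AAGATGG in 13 (18.84%), against 8.196% and 7.278%. The GC box GGGCGG was less common in members (49.28%) than in tested genes (67.32%), and above its share of 38.2% in all promoters. CCAAT stood in 39.13% of member promoters, 42.96% of those of tested genes and 41.06% of all, and the E box CACGTG in 7.246%, 11.57% and 8.093%. CCGGAAG and AAGATGG can share the letters AAG, TGCGCA reads the same on both strands, and a match describes letters in this window and not a bound site.

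Total counts ran from 15987580 to 22680212 per library. Whether each library is a different mouse is not stated in the labels, and p-values therefore describe variation among libraries that could be technical. Prodh itself had 12.3 to 14.7 CPM (counts scaled to a common, TMM-normalised library size) in PRODH TAC and 6.19 to 8.38 CPM in vector TAC libraries, and 12.6 to 14.8 CPM in PRODH sham against 10.4 to 11.5 CPM in vector sham. All 12 cardiomyocyte markers were detected, and so were markers of other heart cells. The 12 fibroblast markers summed to 637 to 811 CPM in PRODH TAC libraries, against 2174 to 2418 CPM in vector TAC. In PRODH sham libraries they summed to 441 to 470 CPM, against 313 to 481 CPM in vector sham. None of these marker genes was at 0 in every library. In such bulk samples, fewer cells of a type and less RNA per cell cannot be told apart.

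Levels differed widely within the module. Per kilobase of deposited gene length and averaged over all 16 libraries, Mrpl42, a mitochondria-specific large subunit protein, was highest at 264.8 CPM per kilobase. Mrpl30 had 163.8 CPM per kilobase and Mrps21, a small subunit protein with a bacterial homolog, 162.8, and their order differed between groups (131.4 and 122.6 in PRODH TAC, 151.4 and 139.1 in vector TAC, 180.6 and 183.2 in PRODH sham, 191.8 and 206.3 in vector sham). Mrpl12, which forms the stalk that calls translation factors to the large subunit, had 87.2 CPM per kilobase. The lowest were Mrpl23 with 1.78, Mrpl17 with 2.91 and Mrps26 with 2.96 CPM per kilobase, the last 2 in the other order in PRODH TAC. Mrpl17 also had the longest deposited length, 7300 bases, and by CPM not divided by length it ranked 55 of the 78 members. Mrpl23 has a pseudogene in the table, Mrpl23-ps1, whose counts were the larger in every library.

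After TAC under the vector, nearly the whole module fell. Of the 78 members, 71 were lower in vector TAC than in vector sham libraries and 0 were higher at an adjusted p under 0.05 (edgeR quasi-likelihood test, Benjamini-Hochberg over 14066 genes). Over all genes tested, 56.5% were called, 26.2% as lower and 30.3% as higher. The median log2 fold change of the members was −0.46, against 0.02 over all genes tested, and 76 of the 78 members lay below that all-gene median. In 68 members all 4 vector TAC libraries were below all 4 vector sham libraries, which held for 21.1% of genes tested. Summed over the members, RNA averaged 2278 ± 81.2 CPM in vector TAC and 3160 ± 127 CPM in vector sham libraries (SD, n = 4 each).

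**Figure D1:**
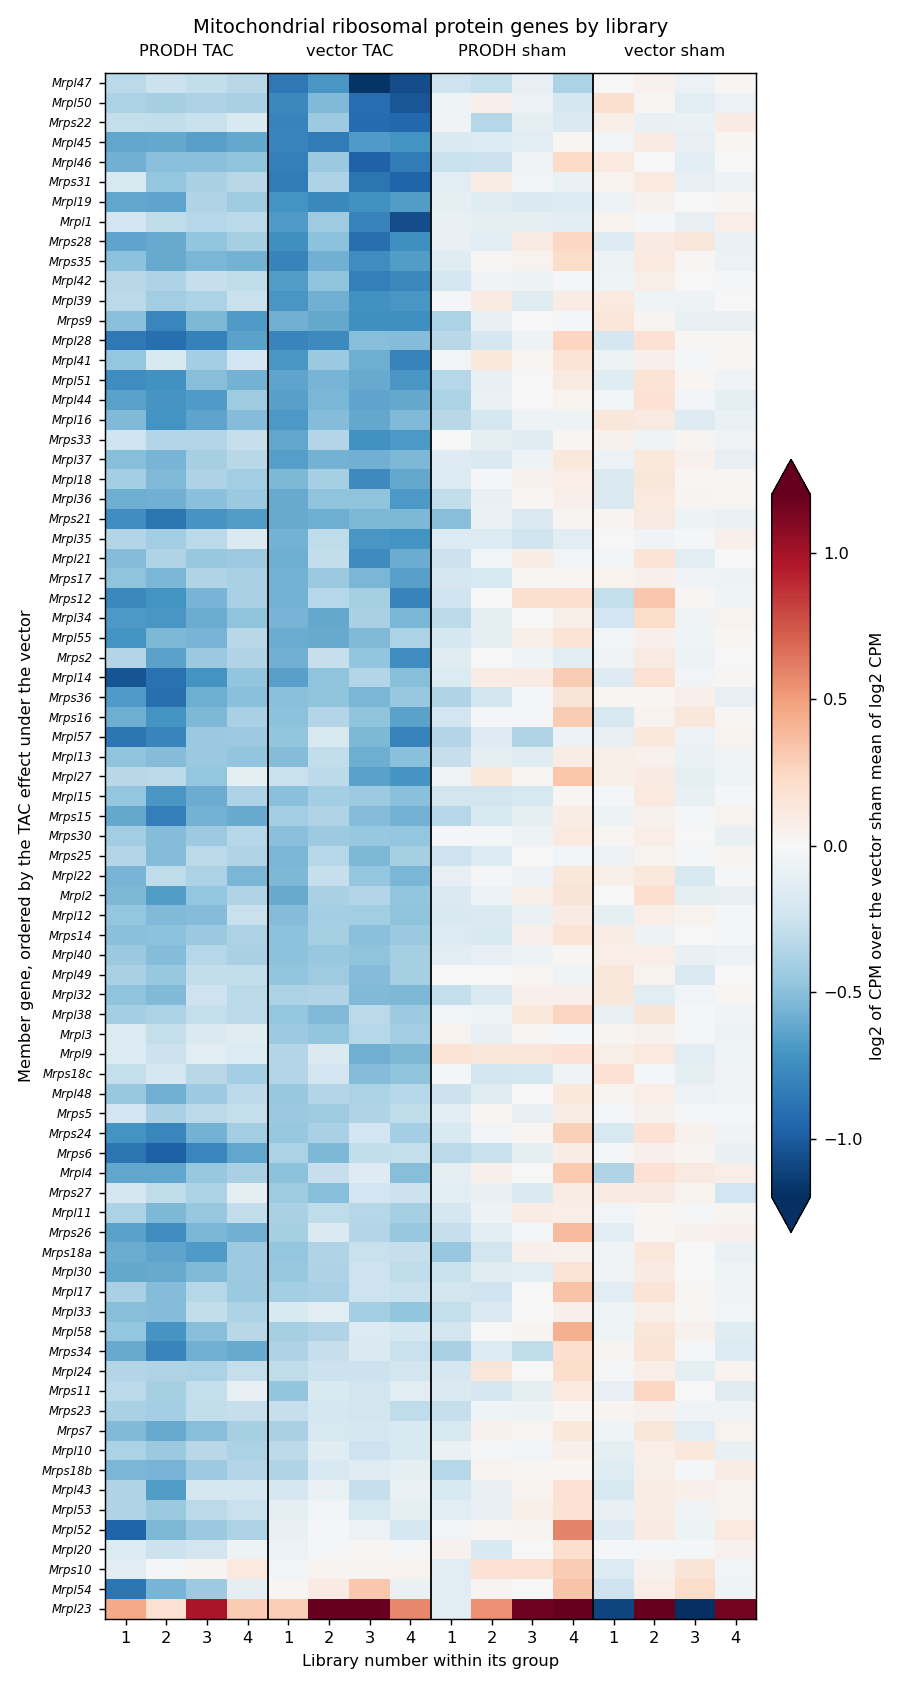
Each row is a member and each column a library, with colour for log2 of its CPM over the vector sham mean of log2 CPM, cut at the ends of the scale. The PRODH TAC and vector TAC columns are mostly blue, with 69 members called lower under PRODH and 71 under the vector, while Mrpl23, the bottom row, varies between libraries of a group.

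Both subunits took part. Of the 51 large subunit members 45 were lower, with a median of −0.46, and of the 26 small subunit members 25 were lower, also with a median of −0.46. Large subunit RNA summed to 1568 ± 55.7 CPM in vector TAC and 2191 ± 96.8 CPM in vector sham libraries, and small subunit RNA to 670 ± 25.6 CPM in vector TAC and 912 ± 31.7 CPM in vector sham libraries (SD, n = 4 each). By origin, 43 of 46 members with a bacterial homolog and 27 of 31 mitochondria-specific members were lower, each with a median of −0.46. Mrps36, which is no ribosomal protein by function, had 40.3 ± 1.15 CPM in vector TAC and 56.9 ± 2.56 CPM in vector sham libraries, a log2 fold change of −0.50 ± 0.0893 (SE, adjusted p = 2.25e-05), or −0.14 and no call with library size alone.

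Mrpl45 and Mrpl47 had the smallest p-values. Mrpl45, a large subunit protein at the exit tunnel that holds the ribosome to the inner membrane, had 24.8, 24, 26.8 and 26.2 CPM in vector TAC libraries, against 42.1, 46.2, 40.1 and 43.8 CPM in vector sham libraries. The groups were far apart, with a 1.69-fold lower level after TAC (log2 −0.76 ± 0.0706 SE, adjusted p = 1.97e-10). Mrpl47, a large subunit protein related to bacterial L29, had 12.9, 14.4, 10.4 and 11.2 CPM in vector TAC libraries, against 23.4, 24.2, 22.2 and 23.8 CPM in vector sham libraries. Its log2 fold change of −0.93 ± 0.0897 was the lowest in the module (adjusted p = 3.86e-10). Mrpl42, the member with the most RNA per length, fell 1.61-fold, with 130, 148, 118 and 121 CPM in vector TAC libraries and 201, 218, 207 and 206 CPM in vector sham libraries. Every vector TAC library was again below every vector sham library.

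The other members with the smallest p-values had similar changes. Mrpl19, a large subunit protein with a bacterial homolog, fell by 0.72 on the log2 scale, Mrpl50 by 0.80 and Mrpl39 by 0.67, Mrpl50 and Mrpl39 being mitochondria-specific proteins of that subunit. Mrps35, a mitochondria-specific small subunit protein, fell by 0.70. Mrpl1, the protein of the mobile stalk at the exit site, fell by 0.72, with 18.9 ± 3.45 CPM in vector TAC and 31.1 ± 1.61 CPM in vector sham libraries. All of these had an adjusted p of 6.25e-08 or less and groups that did not overlap.

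Members with well described roles fell too, by differing amounts. Mrpl44, an RNase III relative of the large subunit, averaged 23 ± 0.741 CPM in vector TAC and 35.2 ± 3.08 CPM in vector sham libraries (log2 −0.62). Mrpl12 averaged 98.1 ± 3.64 CPM in vector TAC and 135 ± 7.69 CPM in vector sham libraries (log2 −0.46). Mrpl3 lies near the catalytic centre and fell by 0.42 on the log2 scale. The decoding proteins Mrps12 and Mrps5 fell by 0.54 and 0.38, with −0.19 and −0.03 and no call when scaled by library size alone. Mrps22 fell by 0.76 and Mrps7, homolog of the bacterial protein that starts assembly of the small subunit head, by 0.25, the last with a value of 0.10 and no call when scaled by library size alone.

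Among the relatives of bacterial S18, Mrps18c fell by 0.39, Mrps18a by 0.34 and Mrps18b by 0.21 on the log2 scale, the last with overlapping groups and an adjusted p of 0.0483; scaled by library size alone, Mrps18c stood at −0.04, Mrps18a at 0.01 and Mrps18b at 0.15, none of them called. That Mrps18b call was lost without the filter on low counts (adjusted p = 0.0626) and when any of 8 libraries was left out (vector sham libraries 2, 3 and 4, vector TAC libraries 1 and 2, and PRODH TAC libraries 1, 2 and 3), with −0.15 (adjusted p = 0.18) without vector TAC library 1. Mrpl58, which frees peptides from stalled ribosomes, fell by 0.29 (adjusted p = 0.023; 0.07 and no call with library size alone), and its adjusted p was 0.0723, 0.076 and 0.0619 without vector sham library 2, vector TAC library 1 and vector TAC library 2.

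The 7 members without a call were Mrpl43, Mrpl53, Mrpl52, Mrpl20, Mrps10, Mrpl54 and Mrpl23. Mrps10, a small subunit protein, had 12.2, 12.7, 12.7 and 12.8 CPM in vector TAC libraries and 11.1, 12.9, 13.8 and 12.2 CPM in vector sham libraries, so the groups overlapped fully. Mrpl54 and Mrpl52, mitochondria-specific large subunit proteins, had log2 fold changes of 0.08 ± 0.136 and −0.11 ± 0.136 (SE). Mrpl23, which lies at the exit of the peptide tunnel, held 1.01% to 12.3% of the counts of its own row and that of Mrpl23-ps1 together. Alone it had a log2 fold change of 0.55 ± 0.501 (adjusted p = 0.373). With both rows summed, a step added after seeing the data, it averaged 22.8 ± 2.18 CPM in vector TAC and 30.9 ± 1.75 CPM in vector sham libraries, a log2 fold change of −0.44 ± 0.0879 (adjusted p = 9.36e-05).

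Other values moved with TAC beside the module. The 12 cardiomyocyte markers, of which 9 fell and 2 rose under the vector, summed to 36290 ± 1220 CPM in vector TAC and 47747 ± 2290 CPM in vector sham libraries (SD, n = 4 each). Set against these, member RNA amounted to 6.28 ± 0.366 CPM per 100 CPM of marker RNA in vector TAC and 6.62 ± 0.237 in vector sham libraries, with overlapping ranges. The markers, Nppa among them, themselves had log2 fold changes from −1.18 to 4.19, so their sum is no fixed measure of cardiomyocyte RNA. Fibroblast markers rose in 12 of 12, endothelial and myeloid markers in 10 of 10 each and red cell markers in 5 of 5 cases. The part of these shifts in the fall of the members was not tested. Scaled by library size alone, the median of all genes tested was 0.37 and that of the members −0.11. Then 25 members were lower, all of them among the 71, and Mrpl20, Mrpl53, Mrpl54 and Mrps10 were higher, while Mrpl12 and Mrpl3 had no call. Over all genes tested, 8.52% were lower and 53.1% higher under that scaling.

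The same operation under PRODH also lowered most of the module. Of the 78 members, 69 were lower and 0 higher in PRODH TAC than in PRODH sham libraries, against 17.8% lower and 17.2% higher (35% in either direction) over all genes tested. The member median was −0.40, against 0.02 over all genes tested, and 65 members had groups that did not overlap, all lower (17.4% of genes tested). Summed member RNA averaged 2303 ± 109 CPM in PRODH TAC and 3042 ± 257 CPM in PRODH sham libraries (SD, n = 4 each). Large subunit members were lower in 47 of 51 and small subunit members in 21 of 26 cases.

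Mrpl14, a large subunit protein with a bacterial homolog at the subunit interface, had 13.7, 15.1, 17.1 and 20.3 CPM in PRODH TAC libraries, against 25.2, 29.8, 30.1 and 34.7 CPM in PRODH sham libraries. It fell 1.81-fold (log2 −0.85 ± 0.107 SE, adjusted p = 7.7e-07), and no PRODH TAC library reached a PRODH sham library. Mrps35, Mrpl45 and Mrps21 fell by 0.59, 0.51 and 0.58 on the log2 scale, with adjusted p of 5.3e-07, 1.53e-06 and 3.36e-06, and the Mrpl45 call was lost with library size alone (−0.13, adjusted p = 0.145). Mrpl23 summed with its pseudogene averaged 21 ± 0.995 CPM in PRODH TAC and 30.1 ± 4.16 CPM in PRODH sham libraries (log2 −0.52 ± 0.0876, adjusted p = 3.44e-05). Scaled by library size alone, 8 members were lower and 7 higher, with a member median of −0.02 and an all-gene median of 0.40, where 2.21% of all genes tested were lower and 56% higher. Of the cardiomyocyte markers 7 were lower and 2 higher after TAC under PRODH, and of the 12 fibroblast markers 10 were higher. Member RNA per 100 CPM of cardiomyocyte marker RNA was 6.19 ± 0.0361 CPM in PRODH TAC and 6.42 ± 0.257 CPM in PRODH sham libraries (SD, n = 4 each), and the part of these shifts in the members' fall was not tested.

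Both TAC comparisons use separate libraries, so their calls can be set side by side. Under both viruses 64 members were called lower. The shares of all genes tested called lower under both viruses, or under only 1, were not computed. Taken singly, 17.8% were lower under PRODH and 26.2% under the vector. Mrpl1, Mrpl35, Mrpl47, Mrps11, Mrps18c, Mrps22 and Mrps27 were called under the vector and not under PRODH. Mrpl20, Mrpl43, Mrpl52, Mrpl53 and Mrpl54 were called under PRODH and not under the vector. The Mrpl20 call (log2 −0.20, adjusted p = 0.0427) was lost without the filter on low counts, without mitochondrial genes in the scaling, with library size alone, with only both PRODH groups fitted and with the adjustment for GC and length, which also ended the Mrpl53 call. Mrpl1 was called lower under PRODH too with only both PRODH groups fitted, without vector TAC libraries 3 and 4 and with the adjustment for GC and length, as was Mrpl35 with the last. Mrps10 and Mrpl23 were called under neither. The TAC effect lay nearer 0 under PRODH in 49 of the 78 members, and the same share over all genes was not computed. The quartiles of all genes tested also lay nearer 0 under PRODH, at −0.22 and 0.28, than under the vector, at −0.32 and 0.50.

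**Figure D2:**
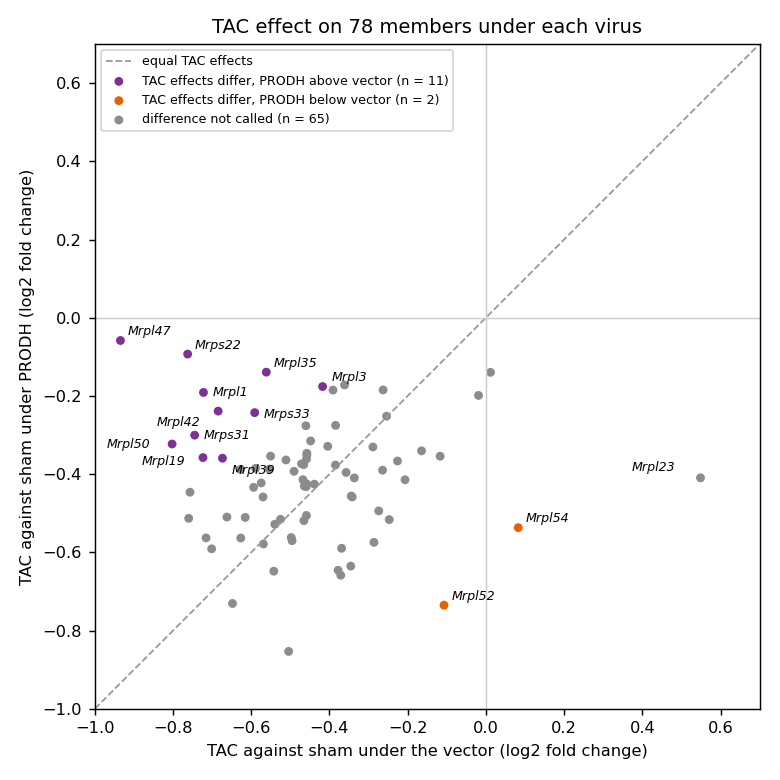
Each point is a member, placed by its log2 fold change for TAC under the vector (x) and under PRODH (y); the dashed line marks equal effects. Coloured points are the 11 members above and the 2 below the line whose effects differed at an adjusted p under 0.05; Mrpl47 lies at −0.06 under PRODH and −0.93 under the vector.

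A direct test of the difference between both TAC effects, the virus by surgery interaction, called 13 members. The TAC effect was higher, that is less negative, under PRODH in 11 and lower in 2, against 10.9% higher and 15.8% lower over all genes tested. The 11 were Mrpl47, Mrps22, Mrpl1, Mrpl50, Mrpl42, Mrps31, Mrpl35, Mrpl19, Mrps33, Mrpl39 and Mrpl3, and the 2 were Mrpl52 and Mrpl54. Mrpl47 led with a difference of 0.88 ± 0.125 (SE) on the log2 scale (adjusted p = 3.9e-06), with TAC effects of −0.06 under PRODH and −0.93 under the vector. Mrps22 followed with 0.67 ± 0.137 (adjusted p = 0.000479), with −0.09 under PRODH and −0.76 under the vector. Mrpl1 and Mrpl42 differed by 0.53 and 0.45 (adjusted p = 0.0021 and 0.00113).

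Mrpl52 and Mrpl54 went the other way. Mrpl52 had 3.46, 4.63, 4.96 and 5.20 CPM in PRODH TAC and 6.34, 6.65, 6.40 and 5.80 CPM in vector TAC libraries. In sham hearts it had 6.6, 6.85, 6.88 and 10.2 CPM with PRODH and 6.05, 7.21, 6.46 and 7.30 CPM with the vector. The PRODH TAC libraries were lowest, and 1 PRODH sham library stood above all others. The difference in TAC effects was −0.63 ± 0.192 (adjusted p = 0.015), and −0.41 (adjusted p = 0.0868) without that library, PRODH sham library 4. For Mrpl54 it was −0.62 ± 0.193 (adjusted p = 0.0213), and −0.47 (adjusted p = 0.0701) without the same library. Without vector sham library 1 both calls were also lost (Mrpl52 −0.54, adjusted p = 0.0512; Mrpl54 −0.50, adjusted p = 0.0652), and without vector sham library 4 that of Mrpl54 (−0.55, adjusted p = 0.0594).

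After TAC, PRODH was set against vector. In PRODH TAC libraries 13 members were higher and 12 lower than in vector TAC libraries, against 18.5% higher and 24.6% lower over all genes tested. The member median was −0.01, against −0.04 over all genes tested, and summed member RNA averaged 2303 ± 109 CPM in PRODH TAC and 2278 ± 81.2 CPM in vector TAC libraries (SD, n = 4 each). Groups did not overlap in 9 members that were higher (16.7% of genes tested) and 9 that were lower (22.6%). Both counts of members called, 16.7% and 15.4% of the module, were under the background. By subunit, 10 large and 3 small subunit members were higher, and 6 of each were lower.

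Mrpl47 had 18.7, 19.6, 19.1 and 18.5 CPM in PRODH TAC and 12.9, 14.4, 10.4 and 11.2 CPM in vector TAC libraries. Its level was 1.55-fold higher with PRODH (log2 0.63 ± 0.0887 SE, adjusted p = 1.25e-06), and it had 19.7, 19.2, 21.9 and 18 CPM in PRODH sham libraries. The PRODH TAC libraries thus lay within the range of PRODH sham and below every vector sham library. Mrps22, a mitochondria-specific small subunit protein, had 14.7, 14.6, 14.9 and 15.8 CPM in PRODH TAC and 10.3, 13.3, 9.44 and 9.32 CPM in vector TAC libraries. The groups did not overlap (1.42-fold higher, log2 0.50 ± 0.0975, adjusted p = 0.000114), although vector TAC library 2 came close. In sham hearts Mrps22 had 17.4, 14.1, 16.6 and 15.9 CPM with PRODH and 18.8, 16.9, 17.0 and 19.1 CPM with the vector.

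Other members were higher by smaller amounts. Mrpl42 had 165, 161, 172 and 168 CPM in PRODH TAC libraries, all above the 130, 148, 118 and 121 CPM of vector TAC libraries (log2 0.36 ± 0.0702, adjusted p = 0.000116). Mrpl50 had 32.5, 32.1, 32.8 and 32.2 CPM in PRODH TAC and 24.8, 29.2, 22.4 and 20.8 CPM in vector TAC libraries (log2 0.41 ± 0.0876, adjusted p = 0.000322). The 4 PRODH TAC values were close together and the vector TAC values spread, with library 2 highest, as in Mrpl47, Mrps22 and Mrpl42. Mrpl1 rose by 0.42, Mrpl39 by 0.33, Mrps31 by 0.40 and Mrps33 by 0.29 on the log2 scale, the last 2 with overlapping groups. Mrpl3 had 66.7 ± 3.03 CPM in PRODH TAC and 57 ± 2.12 CPM in vector TAC libraries (log2 0.23, adjusted p = 0.00498).

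**Figure D3:**
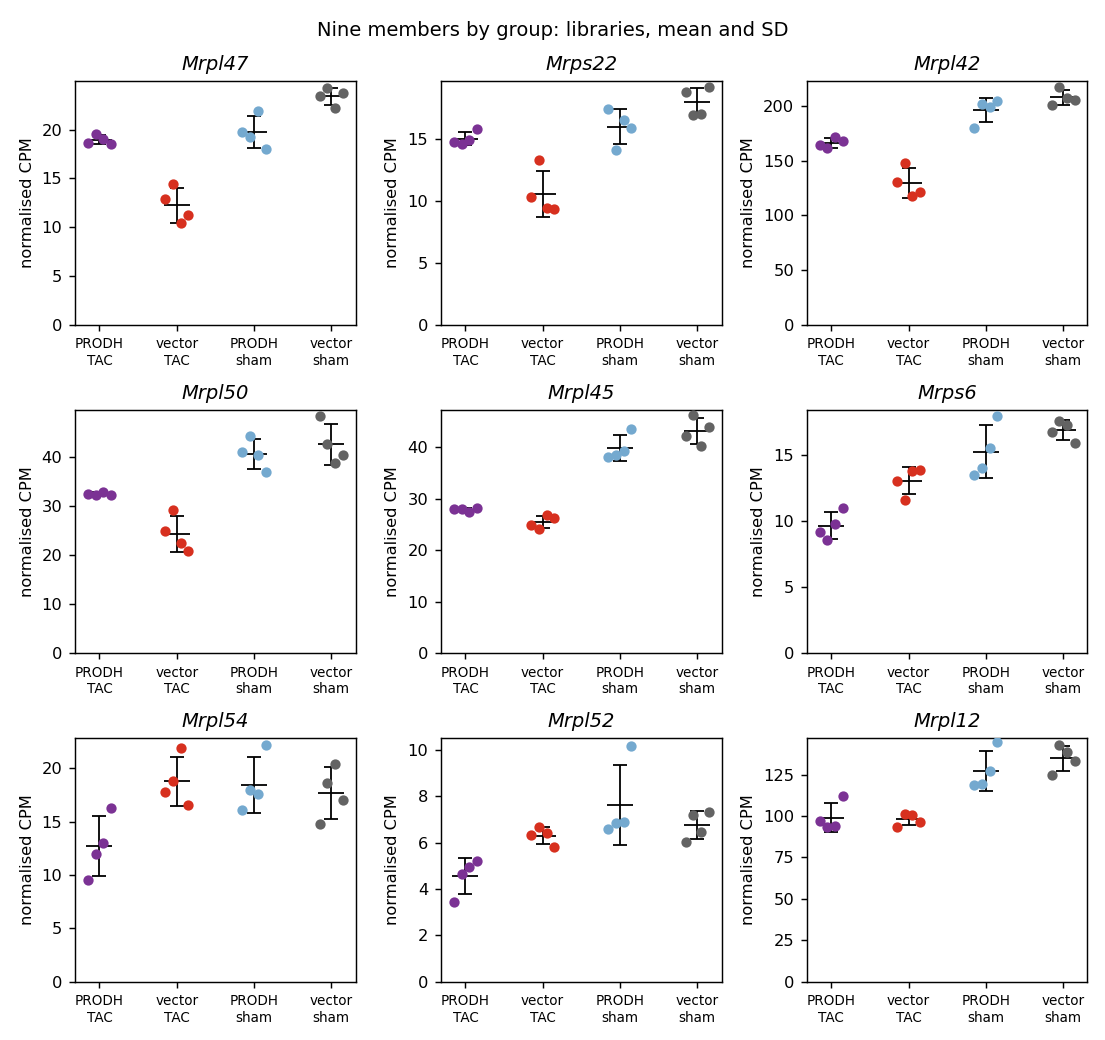
Each panel shows normalised CPM of a member by group, with a point per library and bars for mean ± SD (n = 4). Mrpl47, Mrps22, Mrpl42 and Mrpl50 are higher in PRODH TAC than in vector TAC libraries, Mrps6, Mrpl54 and Mrpl52 are lower, and Mrpl12 averages 99.1 CPM in PRODH TAC and 98.1 CPM in vector TAC.

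Among the members that were lower, Mrps6, a small subunit protein with a bacterial homolog, had the smallest p. It had 9.21, 8.59, 9.83 and 11 CPM in PRODH TAC and 13, 11.6, 13.8 and 13.9 CPM in vector TAC libraries (1.35-fold lower, log2 −0.44 ± 0.0975, adjusted p = 0.000585). The groups did not overlap, and every PRODH TAC library lay below every sham library. Mrpl54 had 9.53, 11.9, 13 and 16.3 CPM in PRODH TAC and 17.8, 18.8, 21.9 and 16.6 CPM in vector TAC libraries (log2 −0.56 ± 0.136, adjusted p = 0.00209). Here the highest PRODH TAC library nearly met the lowest vector TAC library. Mrps34 and Mrps7 were lower by 0.37 and 0.27 on the log2 scale, Mrpl52 by 0.47 and Mrpl53 by 0.23.

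Mrps18b and Mrps18a were lower by 0.27 and 0.24, with adjusted p of 0.0149 and 0.0314 and overlapping groups. The Mrps18a call was lost when any of 12 of the 16 libraries was left out, and with relative log expression factors, DESeq2, library size alone or scaling without mitochondrial genes (adjusted p = 0.0516 to 0.0806). Mrpl53 lost its call with library size alone (adjusted p = 0.0554), and the calls of Mrps18b and Mrpl53 were lost without PRODH TAC library 2 (adjusted p = 0.0511 and 0.0551). Their relative Mrps18c had a log2 difference of 0.08 ± 0.0819 (adjusted p = 0.441). Mrpl12 had 99.1 ± 8.83 CPM in PRODH TAC and 98.1 ± 3.64 CPM in vector TAC libraries, Mrpl44 had 23 ± 2.12 CPM in PRODH TAC and 23 ± 0.741 CPM in vector TAC libraries, and neither difference was called. Mrps12, Mrps5, Mrpl58 and Mrps36 had log2 differences of −0.08, 0.08, −0.22 and −0.17, with adjusted p of 0.633, 0.396, 0.1 and 0.137.

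The counts depended on scaling and on transcript composition. The 13 higher and 12 lower members became 13 and 7 with relative log expression factors or DESeq2. They became 14 and 7 when mitochondrial genes were left out of the scaling, 14 and 6 with library size alone, and 17 and 9 when only both TAC groups were fitted. Over all genes tested, 19.8% were higher and 22.9% lower with relative log expression factors, and 19.2% and 21.8% with DESeq2. These shares were 20.8% and 22.6% without mitochondrial genes in the scaling and 19.6% and 20.2% with library size alone. With only both TAC groups they were 21.9% and 22.2%. Across members, the log2 difference was lower where the GC content of annotated transcripts was higher (Spearman rho −0.48 over 78 members, which share these libraries), and the same held over 13888 genes (rho −0.36). Members under 47.7% GC had a median of 0.05 and members over 52.4% GC a median of −0.16, against 0.13 and −0.20 over all genes. In a fit that took out a per-library trend with GC and length, chosen after seeing the data, 32 members were higher and 1 lower, against 23.2% higher and 19.8% lower over all genes tested. Of the 13 higher members 12 kept their call there, all but Mrpl35, and of the 12 lower members 1 did, Mrps6. The interaction in that fit had 31 members higher and 0 lower (17% and 12.9% of all genes tested), without the calls of Mrpl52 and Mrpl54. In the main fit, rho with GC over members was −0.56 for the interaction, −0.48 for TAC under PRODH and 0.32 under the vector. Over all genes these were −0.32, −0.10 and 0.18. Between the sham groups rho was 0.39 over members and 0.01 over all genes. The 11 members called higher in the interaction of the main fit had 41.1% to 48.9% GC, and Mrpl52 and Mrpl54 had 56.7% and 60.8%.

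**Figure D4:**
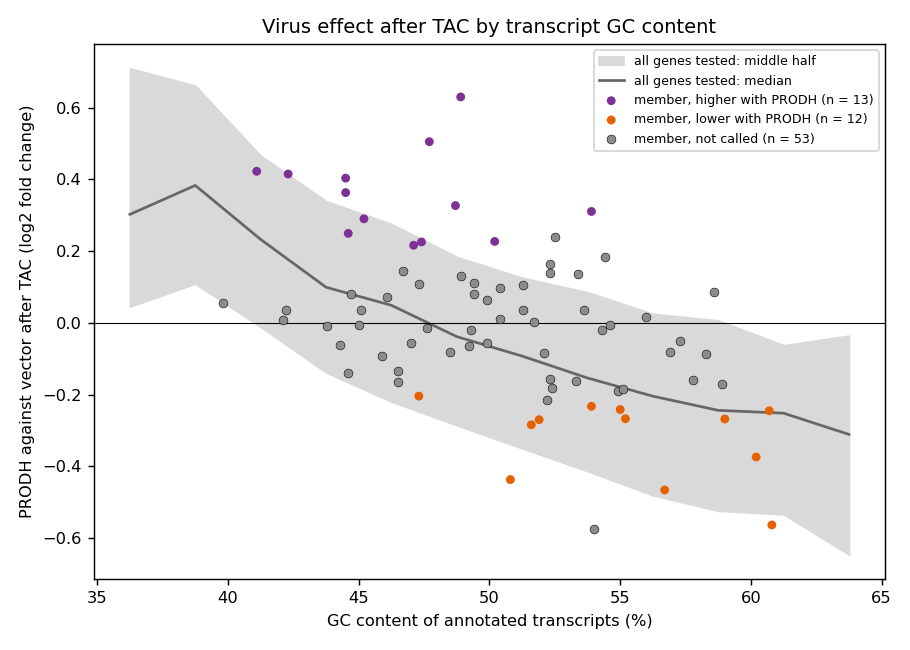
Points are members, placed by the GC content of their annotated transcripts (percent) and their log2 fold change for PRODH against vector after TAC. The line and band show the median and the range between quartiles of all genes tested in GC bins. The 13 members called higher and the 12 called lower are marked; the rank correlation with GC was −0.48 over members and −0.36 over all genes.

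The vector TAC libraries also differed among themselves. Libraries 3 and 4 had less mt-Nd4 RNA, which ranged from 20080 to 33662 CPM in vector TAC, than every other library. Without these, a choice made after seeing the data, 8 members were higher and 5 lower with PRODH after TAC, against 12.1% higher and 17.3% lower over all genes tested. The interaction called 7 higher and 1 lower, against 7.89% and 11.5% over all genes tested. Mrpl47, Mrps22, Mrpl42, Mrpl1 and Mrpl3 kept both calls (the Mrpl3 interaction call was lost with library size alone and without the filter on low counts), Mrpl39 and Mrpl50 kept only that after TAC, Mrpl19 kept only the interaction, and Mrps31, Mrps33 and Mrpl35 kept neither. Among members that were lower with PRODH, Mrps34 (adjusted p = 0.0503), Mrps7 (adjusted p = 0.0718), Mrps18a and Mrps18b then had no call, nor did Mrpl54 in the interaction (adjusted p = 0.071). The fibroblast markers of these groups, all 12 lower with PRODH after TAC, summed to 713 ± 79.8 CPM in PRODH TAC and 2297 ± 107 CPM in vector TAC libraries (SD, n = 4 each). Endothelial markers were lower in 10 of 10, myeloid in 8 of 10 and red cell markers in 5 of 5 cases, and red cell markers were also lower in 5 of 5 cases in PRODH sham against vector sham. The cardiomyocyte markers summed to 37212 ± 1680 CPM in PRODH TAC and 36290 ± 1220 CPM in vector TAC libraries. Single markers differed more than this sum, with log2 differences from −2.66 to 0.66. Member RNA per 100 CPM of these markers was 6.19 ± 0.0361 CPM in PRODH TAC and 6.28 ± 0.366 CPM in vector TAC libraries. The part of these differences in the results on the members was not tested.

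Reads that overlap another gene limit some members. Exons of 32 members overlap another gene in GENCODE M21, 27 of them one on the opposite strand, and it is not stated whether counting used strand. In 16 members the other gene held at least 10% of the member's own count. Mrpl47 overlaps Ndufb5, a complex I subunit, and Actl6a. Ndufb5 had log2 fold changes of −0.54 for TAC under PRODH, −0.51 for TAC under the vector and −0.07 (adjusted p = 0.526) for PRODH against vector after TAC, and Actl6a rose by 0.26 in the last (adjusted p = 0.0233). Mrps34 overlaps Mapk8ip3 on the opposite strand, which rose by 0.30 with PRODH after TAC, and Nme3 on the same strand, which had a log2 difference of −0.30 (adjusted p = 0.0765). Mrps6 overlaps Slc5a3, which had a log2 difference of −0.27 (adjusted p = 0.268). Mrpl14, with 7174 counts in all, overlaps Tmem63b on the opposite strand, with 12124. Tmem63b had log2 fold changes of −0.37 for TAC under PRODH, −0.57 for TAC under the vector and 0.21 for PRODH against vector after TAC. Fractional counts occurred in at least 1 library in 37 members, and in at least 15 libraries in 11. Mrpl47 was among these 11, with fractional counts in 15 libraries, so part of its count rests on how shared reads were divided.

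Between the sham groups no member passed. PRODH sham against vector sham gave 0 calls among 78 members with edgeR and 0 with DESeq2, against 5% of genes tested with edgeR (2.81% higher and 2.2% lower), and 4 members had an unadjusted p under 0.05. Groups did not overlap in Mrpl9, where PRODH sham libraries were above (5.25% of genes tested), and in Mrpl19, Mrpl35 and Mrpl47, where they were below (5.17%). The member median was −0.06, against 0.01 over all genes tested. Summed member RNA averaged 3042 ± 257 CPM in PRODH sham and 3160 ± 127 CPM in vector sham libraries (SD, n = 4 each). In Mrpl47 the 4 PRODH sham libraries, at 18 to 21.9 CPM, were all below the 22.2 to 24.2 CPM of vector sham, with a log2 difference of −0.25 (adjusted p = 0.11).

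Genes that work with the mitochondrial ribosome were mostly lower after TAC under the vector too, where 26.2% of all genes tested were lower. Of 5 mitoribosomal proteins with other names, 4 were lower, among them Ptcd3 (log2 −0.72) and Dap3 (log2 −0.61). Of 19 translation factors 18 were lower, and those with the smallest p were the elongation factors Gfm1 (log2 −0.74) and Tufm (log2 −0.66) and Gatb (log2 −0.74), a subunit of the enzyme that corrects glutaminyl-tRNA. Of 19 aminoacyl-tRNA synthetases 14 were lower, of 25 assembly and rRNA modification genes 21 were lower and 1 higher, and of 25 genes of mitochondrial DNA and transcript maintenance 21 were lower and 1 higher. Lrpprc, which stabilises mitochondrial messenger RNA, had 51.9 ± 5.45 CPM in vector TAC libraries and a log2 fold change of −0.88, and the helicase Twnk of −0.77. All 13 protein genes of the mitochondrial genome were lower, with a median of −0.65, and both mitochondrial rRNAs were lower, by 0.27 each (median 0.08 and no call with library size alone). With library size alone the medians of the other lists stayed below 0, with 6 translation factors and 9 mitochondrial protein genes lower. Over all genes tested, 8.52% were lower under that scaling.

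After TAC under PRODH, 17.8% of all genes tested were lower. The listed genes called lower were 9 of 19 translation factors, 8 of 19 synthetases, 13 of 25 assembly genes, 10 of 25 maintenance genes and 12 of 13 mitochondrial protein genes. With library size alone, the medians of translation factors, synthetases, assembly and maintenance genes were instead 0.11, 0.15, 0.07 and 0.15, against 0.40 over all genes tested. In the main fit both mitochondrial rRNAs were called lower under PRODH, mt-Rnr1 at log2 −0.68 and mt-Rnr2 at log2 −0.42. The libraries were made with a kit for mRNA, and its capture of rRNA was not tested. The difference in TAC effects was −0.40 for mt-Rnr1 (edgeR, adjusted p = 0.0128) and −0.15 for mt-Rnr2 (adjusted p = 0.408). Of these 2 rRNAs, 1 was lower with PRODH after TAC and 1 higher with PRODH after sham. Between both viruses after TAC, 18.5% of all genes tested were higher and 24.6% lower with PRODH. PRODH libraries had 9 translation factors higher and 1 lower, and 5 synthetases higher and 2 lower. They had 8 assembly genes higher and 1 lower, and 11 maintenance genes higher and 2 lower. Taco1, an activator of Cox1 translation, had 17.6 ± 0.762 CPM in PRODH TAC and 11.3 ± 1.22 CPM in vector TAC libraries. Lrpprc had 84.5 ± 2.72 CPM in PRODH TAC and 51.9 ± 5.45 CPM in vector TAC libraries (log2 0.70), and Fastkd2, which acts in assembly of the large subunit, differed by 0.59 on the log2 scale.

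Cytosolic ribosomal proteins, the counterpart outside mitochondria, had another pattern. Under the vector 8 of 79 were lower and 5 higher after TAC, against 26.2% and 30.3% of all genes tested. Their median was −0.02, and Rpl3 rose by 1.10 on the log2 scale. With library size alone 68 were higher and 0 lower, against 53.1% and 8.52% of all genes tested. Under PRODH 62 of 79 were lower after TAC, against 17.8% of all genes tested. With library size alone 19 were higher and 6 lower, against 56% and 2.21% of all genes tested. PRODH TAC libraries had 64 lower and 0 higher than vector TAC libraries, with a median of −0.42. Over all genes tested, 24.6% were lower and 18.5% higher. Member RNA per 100 CPM of cytosolic ribosomal protein RNA was 24.6 ± 0.493 in PRODH TAC libraries, against 19.2 ± 0.920 in vector TAC (SD, n = 4 each). In PRODH sham libraries it was 25.9 ± 0.908, against 25.9 ± 0.689 in vector sham. The vector TAC libraries thus stood below the other 3 groups in this ratio, with no overlap.

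**Figure D5:**
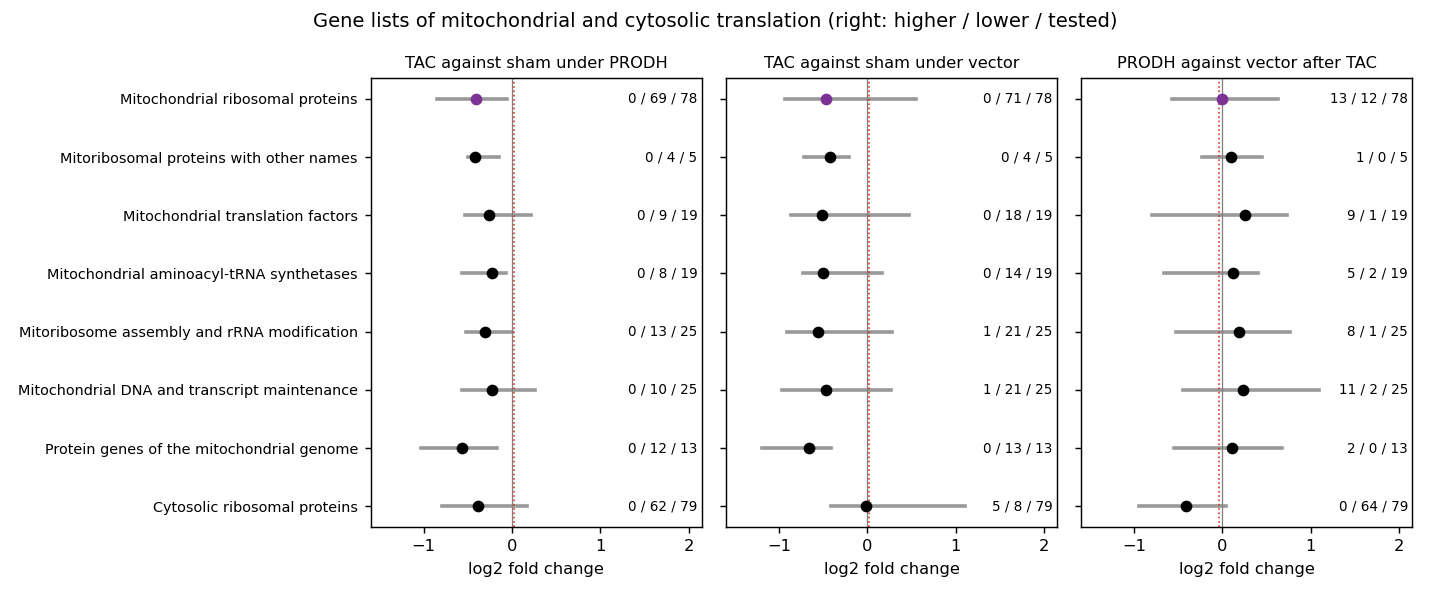
For each gene list, the point is the median and the bar the range of log2 fold changes; numbers at the right give members called higher, called lower and tested, and the dotted line is the median of all genes tested. Mitochondrial ribosomal proteins have 0 higher in both TAC comparisons and 13 higher with 12 lower for PRODH against vector after TAC.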

How the data were processed

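RNA-seq of 16 cardiomyocyte libraries was used. Per the labels' protocols, total RNA was extracted with TRIzol, treated with DNase I and turned into libraries by a SMARTER kit for mRNA. The authors deposited expected (estimated) counts per gene and library, some of them fractional. No source used here names the aligner, counter or genome build. The depth of 15987580 to 22680212 counts per library sets the precision.

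Counts were rounded and tested on the whole table with edgeR 4.0.16 (R 4.3.3, limma 3.58.1). The filter was filterByExpr (minimum count 10, total 15), libraries were scaled by TMM, and a robust quasi-likelihood model with 4 groups and no block was fitted to all 16 libraries. Each comparison had its own Benjamini-Hochberg adjustment and a threshold of 0.05. Normalised CPM were computed here from the deposited expected counts. Groups came from the labels. The test was tried on simulated data. Libraries of a group were compared for duplicates, with a chi-square per gene of 2.87 to 30.7. The lowest value was for PRODH sham libraries 2 and 3 and the highest for vector TAC libraries 2 and 3. Vector TAC libraries 3 and 4 had 3.06 and vector sham libraries 3 and 4 had 3.29. The other pairs of these vector groups had 7.69 to 30.7, and pairs of PRODH TAC libraries 3.1 to 5.78. The cause of these differences was not tested. GENCODE M21 gave transcript GC content for 98.7% of tested genes and overlaps, and RefSeq gave promoters.

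Members and lists were chosen with earlier results of these data known. Named were, of called members, the 8 with the smallest p in each direction in both main comparisons and 4 in the others, the 3 highest and 3 lowest per length, 12 landmark members, and up to 3 called genes per related list. Members named beside a count of 7 or fewer, a difference in TAC effects, or an overlap were chosen after their values were seen, as were the 6 promoters. Alternatives were other scalings, DESeq2 1.42.0, no filter, fitting only the groups compared, a replicate block and leaving out libraries.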

Additional observations from a re-analysis of the deposited data

Results flagged for a closer look

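In 13 members the TAC effect differed between the viruses by the test of the difference itself (edgeR, adjusted p under 0.05 over 14066 genes). These were 16.7% of the module, against 26.8% of all genes tested (10.9% higher and 15.8% lower). The TAC effect under PRODH minus that under the vector, on the log2 scale, was 0.88 for Mrpl47, 0.67 for Mrps22, 0.53 for Mrpl1, 0.48 for Mrpl50, 0.45 for Mrpl42, 0.44 for Mrps31 and 0.42 for Mrpl35. It was 0.37 for Mrpl19, 0.35 for Mrps33, 0.31 for Mrpl39 and 0.24 for Mrpl3, and −0.63 for Mrpl52 and −0.62 for Mrpl54.

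In 5 of 132 groups of 4 libraries, over the 33 named members, 1 library lay far from the rest of its group, where chance gives about 1 in 20. Mrps34 had 23.4 CPM in PRODH TAC library 2, with 26.5 to 27.1 CPM in the other libraries. Mrps7 had 38.5 CPM in vector TAC library 1, with 43.5 to 44.4 CPM in the others. Mrpl52 had 10.2 CPM in PRODH sham library 4, with 6.6 to 6.88 CPM in the others. Mrps18b had 18.2 CPM in PRODH sham library 1, with 23.4 to 23.8 CPM in the others. Mrps5 had 26.9 CPM in vector sham library 2, with 25.7 to 25.8 CPM in the others.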

How the results depend on the processing

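Counts of called members over the leave-one-out fits ran from 60 to 70 for TAC under PRODH, 67 to 72 for TAC under the vector, 18 to 26 for PRODH against vector after TAC, 0 to 1 after sham (1 without PRODH sham library 4) and 12 to 15 for the interaction. The shares of all genes tested called in these fits are not given here. The member medians ran from −0.421 to −0.321 for TAC under PRODH, −0.495 to −0.448 under the vector, −0.0224 to 0.0365 for PRODH against vector after TAC, −0.107 to −0.0136 after sham and 0.0356 to 0.151 for the interaction, highest without PRODH sham library 4. With library size alone, 15 members were called for TAC under PRODH (median −0.019) and 29 under the vector (median −0.11). The Mrpl58, Mrps18a, Mrps18b and Mrps7 changes after TAC under the vector then turned to 0.0653, 0.00706, 0.146 and 0.104, none of them called. Without vector TAC libraries 3 and 4, 13 members were called for PRODH against vector after TAC and 8 for the interaction. Adjusted for GC and length, the medians of these were 0.12 and 0.20, the interaction called 31 and the sham comparison 1. In that sham comparison 3.84% of all genes tested were higher and 4.24% lower. With the same adjustment, Mrpl53, Mrps18a and Mrps12 turned to 0.0411, 0.0372 and 0.229 for PRODH against vector after TAC, the last with an adjusted p of 0.0398. Mrpl23 summed with its pseudogene turned to −0.44 for TAC under the vector. Without division by length, the ratio of the highest to the lowest member other than Mrpl23 was 27.7. The cause of these shifts was not tested.

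Nothing in the labels says that replicate numbers pair the libraries. Same-numbered libraries of different groups had correlations of −0.129 to 0.168 (mean 0.0116), over 0.1 in 3 of 24 pairs. Those with other numbers had −0.192 to 0.212 (mean −0.00386), over 0.1 in 8 of 72 pairs. Of 16 libraries, 5 correlated best with their own number. Low correlations cannot show that no pairing exists. With the replicate block, 69 members were called for TAC under PRODH, 71 under the vector, 25 for PRODH against vector after TAC, 0 after sham and 15 for the interaction. Over all genes tested, 17.4% were then higher and 17.9% lower for TAC under PRODH, and 30.2% and 26.3% under the vector. These shares were 18.8% and 24.8% for PRODH against vector after TAC, 2.94% and 2.2% after sham, and 11.4% and 16.1% for the interaction. The interaction kept its 11 higher and 2 lower calls and gained Mrpl14 and Mrps7 as lower.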
